A study of Canis lupus familiaris with 12 samples.

Results

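IL5 and KITLG encode secreted growth factors of the haematopoietic system, interleukin 5 and KIT ligand (stem cell factor). They were taken as every non-control probe whose identifier on the array is a RefSeq transcript of either gene in the dog, which gave 2 probes, 1 per gene, of 43603 probes in all. Both genes were chosen because their signal was lower at pH 7.0 in these same arrays, so that difference is given below as a description. The cells were MDCK (Madin-Darby canine kidney) cells, a tubule epithelial line of the dog. Confluent cultures were kept without serum at pH 7.4 for 24 h. They then spent a further 24 h either at pH 7.0, in medium with less bicarbonate, or at pH 7.4. The lower pH and the lower bicarbonate cannot be told apart. Cells of both groups belong to the same line and had no gene altered. There were 3 biological replicates, extracted on different dates, each with 1 RNA from pH 7.0 and 1 from pH 7.4, and every RNA was hybridised to 2 one-colour Agilent arrays, 6 arrays per group.

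Interleukin 5 is known as the cytokine that drives the growth, activation and survival of eosinophils. It is made mainly by type 2 helper T cells, innate lymphoid cells and mast cells, and it acts through a receptor of a specific alpha chain, IL5RA, and a beta chain, CSF2RB, that is shared with the receptors for interleukin 3 and GM-CSF. KIT ligand is made by stromal, endothelial and epithelial cells as a membrane protein that proteases can shed. It binds the receptor tyrosine kinase KIT on mast cells, melanocytes, germ cells and blood progenitors.

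Feature Extraction called 49.4% to 70.4% of an array's probes well above background, and the signal at the 75th percentile was 410 to 944. Each biological replicate had its own slide and scan date, and the lowest shares were those of biological replicate 2. Of the genes with a symbol, 944 had a probe, so a gene missing below may still have been measured under another identifier. Of named tubule epithelium markers on the array, the tight junction proteins OCLN and TJP1 and the sodium pump subunit ATP1B1 were called on all 12 arrays, and the claudin CLDN2 on 5 of 6 at pH 7.0 and 3 of 6 at pH 7.4.

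IL5 gave a measurable signal on every array. Its only probe, A_11_P0000020142 for transcript NM_001006950, was called well above background on all 12 arrays, and was never saturated. In biological replicate 1 the processed signal of IL5, in scanner units before scaling, was 151 and 128 on the arrays at pH 7.0, against 248 and 217 at pH 7.4. In biological replicate 2 it was 132 and 111 at pH 7.0, against 196 and 276 at pH 7.4. In biological replicate 3 it was 99.8 and 87.6 at pH 7.0, against 267 and 262 at pH 7.4. All arrays at pH 7.0 thus lay below all arrays at pH 7.4 before scaling, an arrangement in this direction that 0.291% of the 27136 tested probes showed. Nothing is read from that share, since IL5 was chosen for its lower signal on these arrays. Its spot was 4.16 to 6.00 times as bright as the local background at pH 7.0 and 6.38 to 12.9 times at pH 7.4, so that at pH 7.0 the signal stood closer to background.

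KITLG was measured as completely, by probe A_11_P0000020194 for transcript NM_001012735. It too was called well above background on all 12 arrays, with no saturated spot. In biological replicate 1 the processed signal of KITLG was 68.8 and 97.5 at pH 7.0, against 203 and 265 at pH 7.4. In biological replicate 2 it was 70.5 and 56.4 at pH 7.0, against 96.7 and 265 at pH 7.4. In biological replicate 3 it was 105 and 80.8 at pH 7.0, against 134 and 102 at pH 7.4. Before scaling the groups overlapped for KITLG, since 1 array at pH 7.4 in biological replicate 2 and 1 in biological replicate 3 lay below the highest array at pH 7.0. Its spot was 2.80 to 5.31 times as bright as the local background at pH 7.0 and 4.13 to 9.71 times at pH 7.4.

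**Figure D1:**
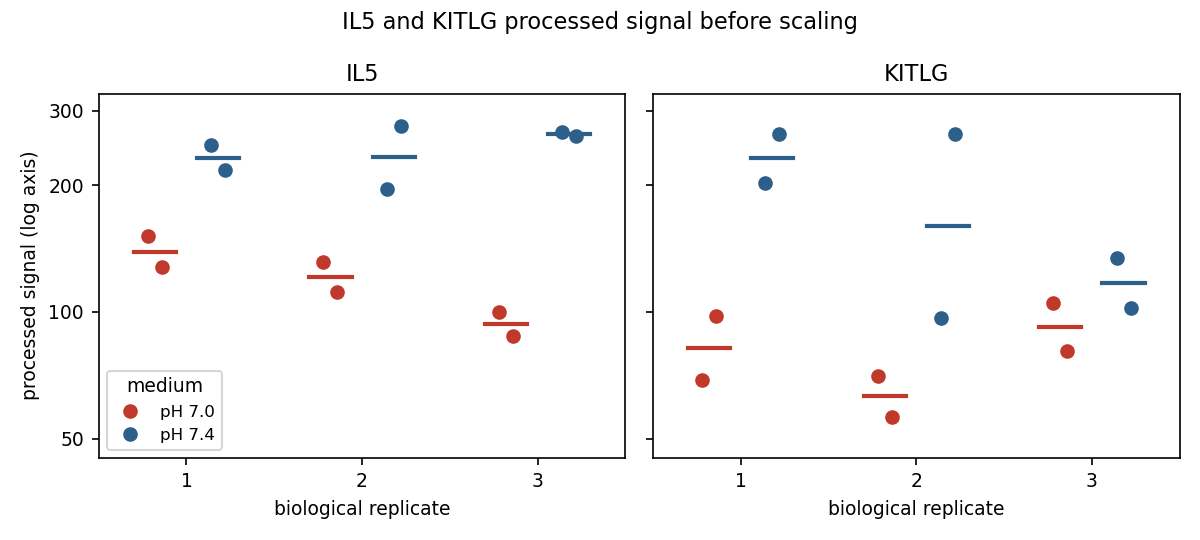
Processed signal of the IL5 and KITLG probes before scaling, on a log axis, by biological replicate; points are single arrays at pH 7.0 or pH 7.4 and short lines their geometric means. IL5 arrays at pH 7.0 (87.6 to 151) all lie below those at pH 7.4 (196 to 276), while KITLG arrays at pH 7.0 (56.4 to 105) overlap those at pH 7.4 (96.7 to 265). Signals of different probes are not comparable.

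Levels were compared after scaling, by subtracting the array's 75th percentile from the log2 processed signal. The mean of the 2 arrays of an RNA gave the level of that RNA, so n is 3 RNAs per group. On this scale IL5 stood at -2.46, -1.91 and -2.80 in the pH 7.0 RNAs of biological replicates 1 to 3, against -1.84, -1.27 and -1.17 in the pH 7.4 RNAs. The mean level of IL5 was -2.39 ± 0.45 at pH 7.0 and -1.43 ± 0.36 at pH 7.4 (SD, n = 3 each). The RNA levels of the groups did not overlap, but the highest at pH 7.0, that of biological replicate 2, and the lowest at pH 7.4, that of biological replicate 1, were 0.065 apart, less than the spread within either group. Over single arrays the scaled levels of IL5 did overlap, with -3.02 to -1.88 at pH 7.0 and -2.12 to -0.97 at pH 7.4. Within each biological replicate both arrays at pH 7.0 were below both at pH 7.4.

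KITLG stood at -3.22, -2.85 and -2.82 in the pH 7.0 RNAs of biological replicates 1 to 3, against -1.85, -1.81 and -2.35 in the pH 7.4 RNAs, on the same log2 scale. Its mean level was -2.96 ± 0.22 at pH 7.0 and -2.00 ± 0.30 at pH 7.4 (SD, n = 3 each). After scaling, the groups were apart for KITLG over single arrays too, with -3.37 to -2.70 at pH 7.0 and -2.37 to -1.53 at pH 7.4, a gap of 0.33. In order of level, the pH 7.0 RNAs of biological replicates 2 and 3 were 0.028 apart, and the pH 7.4 RNAs of biological replicates 1 and 2 were 0.036 apart, both less than the spread within a group. The pH 7.4 RNA of biological replicate 3 was the lowest of its group.

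Both genes were thus lower in all 3 biological replicates and had RNA levels that did not overlap, patterns that in this direction 15.7% and 3.61% of the tested probes showed. Arrays did not overlap within any biological replicate for both genes, against 3.78% of tested probes. KITLG also had no overlap over its 12 arrays after scaling, against 0.789% of tested probes. Nothing is read from these shares, since the genes were chosen on this difference. Because the arrays measured RNA from whole cultures, fewer cells with the transcript and less transcript per cell cannot be told apart.

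**Figure D2:**
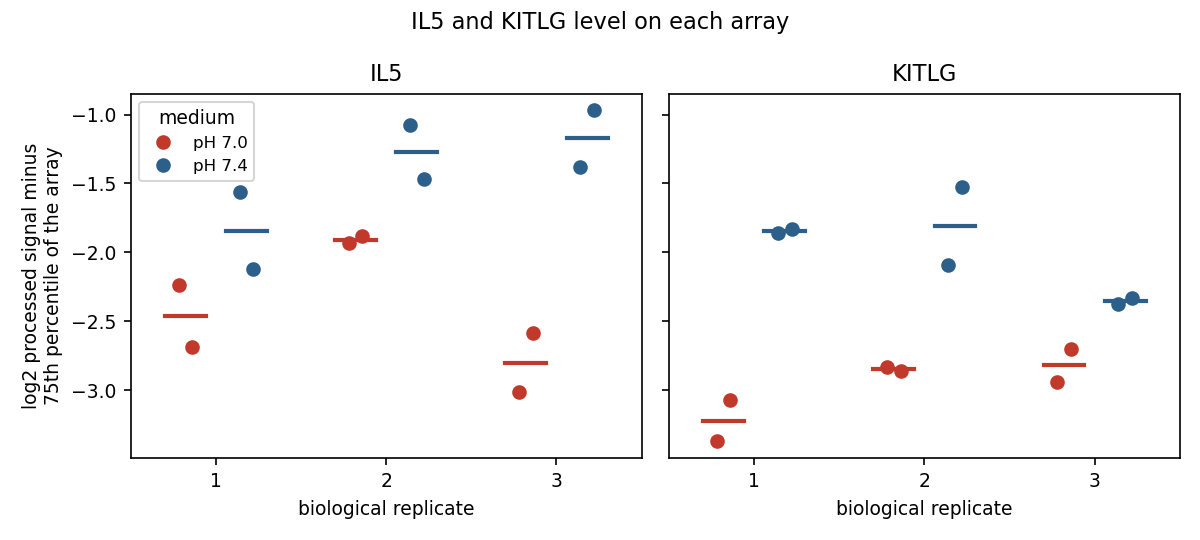
Scaled log2 level of IL5 and KITLG (75th percentile of the array subtracted), by biological replicate; points are single arrays at pH 7.0 or pH 7.4 and short lines the means of the 2 arrays of an RNA. At pH 7.0 both genes are below pH 7.4 within every biological replicate; over all arrays the groups overlap for IL5 and are 0.33 apart for KITLG. Levels of different probes are not comparable.

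The size of the difference was alike in both genes on average and unlike by replicate. IL5 had a log2 change, pH 7.0 minus pH 7.4, of -0.62, -0.64 and -1.63 in biological replicates 1 to 3, with a mean of -0.96 ± 0.26 (SE from limma, n = 3 RNA pairs). This corresponds to a signal 1.95-fold lower at pH 7.0. The largest difference for IL5, 3.09-fold lower, came from biological replicate 3, where its pH 7.4 level was the highest of the 6 RNAs and its pH 7.0 level the lowest. KITLG had log2 changes of -1.38, -1.04 and -0.47, with a mean of -0.96 ± 0.25 (SE, n = 3 pairs), which is also 1.95-fold lower. Its order was the opposite one: the largest difference, 2.60-fold lower, was in biological replicate 1, and the smallest, 1.38-fold lower, in biological replicate 3. The KITLG change minus the IL5 change was -0.76, -0.40 and 1.16 in biological replicates 1 to 3, with a mean of -0.0011 and an SD of 1.02 (n = 3). The changes of both genes therefore differed more within a replicate than on average.

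In the fit over all 27136 tested probes, limma's adjusted p was 0.211 for IL5 and 0.183 for KITLG, so neither passed the threshold of 0.05. At that threshold 0 probes passed in either direction, and the share called lower was 0.0%. At an unadjusted p under 0.05, which both genes had, 5.77% of tested probes were lower and 6.48% higher, and the median change of all tested probes was 0.012. With the 12 arrays fitted singly and the RNA as a random block, limma's adjusted p was 0.0440 for IL5 and 0.0223 for KITLG. That fit took a correlation of 0.164 between repeat arrays of an RNA, so it treats them as largely separate measurements. In it 396 of the 27136 tested probes were called higher and 294 lower. IL5 depended most on biological replicate 3, without which its change was -0.63.

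**Figure D3:**
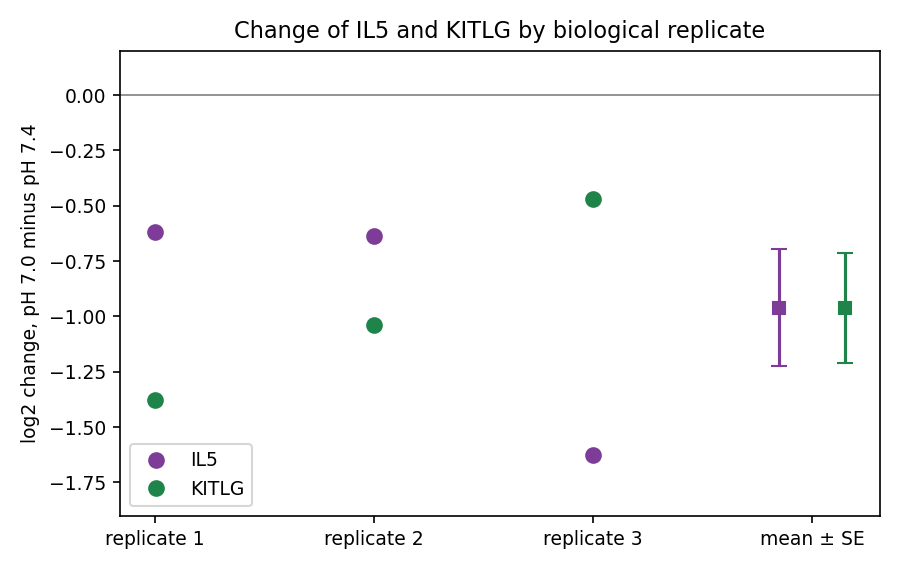
Log2 change, pH 7.0 minus pH 7.4, of IL5 and KITLG in each biological replicate (circles) and the mean with limma's SE (squares, n = 3 RNA pairs). The means coincide at -0.96, while IL5 has its largest difference in biological replicate 3 and KITLG in biological replicate 1.

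Repeat arrays of the same RNA show how well a single spot was measured. The arrays of an RNA differed for IL5 by 0.053 to 0.55 on the log2 scale, with a median of 0.42. For KITLG they differed by 0.026 to 0.57, with a median of 0.14, while the median difference over all tested probes was 0.29. The IL5 arrays differed by 0.45 at pH 7.0 and 0.55 at pH 7.4 in biological replicate 1, so its change there could be anywhere from -1.12 to -0.12 depending on which arrays were set against each other. In biological replicate 3, with the largest IL5 change, this range was -2.05 to -1.21. For KITLG the range was -1.54 to -1.22 in biological replicate 1, -1.34 to -0.74 in biological replicate 2 and -0.61 to -0.33 in biological replicate 3. The pair of KITLG arrays that differed most was that of the pH 7.4 RNA of biological replicate 2, by 0.57, and 16.2% of tested probes had a larger difference there. On the log2 scale all 4 array pairs of each biological replicate had a lower value at pH 7.0, for both genes.

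The other genes of the IL5 system were few among the named probes. IL5RA and CSF2RB, the chains of the IL5 receptor, had no probe with that symbol. Of 26 genes listed for the IL5 receptor and type 2 cytokines, 8 were on the array by name and 4 were tested, IL5 among them. IL4 and IL13, the type 2 cytokines that act on B cells and epithelia, were well above background on 0 of 12 arrays. IL33, an epithelial alarm cytokine, had 0 of 6 arrays above background at pH 7.0 and at most 1 of 6 at pH 7.4. IL3, a growth factor of mast cells and basophils, had at most 2 of 6 at pH 7.0 and at most 1 of 6 at pH 7.4. Unlike IL4, IL13, IL33 and IL3, IL5 was called on every array, and so was CSF2, the GM-CSF gene, another cytokine of this list. Listed genes without a named probe cannot be judged.

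Among the 3 other tested genes of that list, 1 was higher and 2 were lower at pH 7.0, and 0 passed at an adjusted p of 0.05. CSF2, which encodes GM-CSF and whose receptor shares the beta chain with that of IL5, had changes of 1.83, 4.11 and 3.39 in biological replicates 1 to 3, where IL5 had -0.62, -0.64 and -1.63. The mean change of CSF2 was 3.11 ± 0.38 (SE, n = 3 pairs, limma adjusted p = 0.0502). IL13RA2, a decoy receptor for interleukin 13, stood at -0.88 ± 0.28 by its brightest probe (limma adjusted p = 0.259), with -1.05, -0.12 and -1.45 in biological replicates 1 to 3, and its other tested probes were at -0.89 and -0.79. IL2RG, the common gamma chain of several cytokine receptors, was at -0.012 ± 0.22, and 4 of 6 arrays in each group had it above background. GM-CSF also acts on eosinophils, and the estimates for its gene and for IL5 had opposite signs in all 3 biological replicates. Nothing is read from this, since IL5 was chosen for its lower signal at pH 7.0 in these arrays.

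Chemokines that attract eosinophils act beside IL5 in the recruitment of these cells. Of 11 listed attractants and receptors, 9 were on the array and 4 were tested. These 4 had positive estimates, with a median change of 1.64. So did 51.3% of all tested probes and 363 of the 598 named genes tested, each by its brightest probe. After normexp background correction 2 were positive and 2 negative, with a median of 0.30. That alternative started from the median spot signal, so it changed the signal as well as the background method. CCL7 (2.79 ± 0.64), CCL8 (1.90 ± 0.31) and CCL28 (1.38 ± 0.25) had a limma unadjusted p under 0.05. In that direction 6.48% of tested probes and 63 of the 598 named genes had one too. CCL7, CCL8 and CCL28 were also higher in all 3 biological replicates, as were 18.0% of tested probes. None of them passed at an adjusted p of 0.05. CCL7 had its largest change, 5.42, in biological replicate 2, against 1.52 and 1.43 in biological replicates 1 and 3, and its estimate was 1.47 without biological replicate 2 and 0.69 with normexp. CCL5 was at 0.81 ± 0.44 with -0.62 in biological replicate 3. CCL28 and CCL5 took the opposite sign, -0.096 and -0.37, with normexp, CCL5 was at 0.062 without biological replicate 2, and CCL28, CCL7 and CCL5 were above background on 4 of 6 arrays each at pH 7.4. The eosinophil chemokines CCL24 and CCL26 were not above background at pH 7.0 (0 of 6 arrays each), against 2 of 6 and 0 of 6 at pH 7.4. Their receptor CCR3 had 0 of 6 at pH 7.0 and 1 of 6 at pH 7.4.

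KIT, the receptor that KIT ligand binds, was barely measured in these cells. At pH 7.0 its 3 probes exceeded background on 0 of 6 arrays, against at most 1 of 6 at pH 7.4, while its ligand KITLG was above background on all 12. Of 35 genes listed for KIT signalling, 7 were on the array and 6 were tested, KITLG among them. Of the other 5, 3 were higher and 2 lower at pH 7.0, with a median change of 0.28, and 0 passed at an adjusted p of 0.05. MAP2K1, a kinase of the MAP kinase cascade, stood at 0.51 ± 0.24. MITF, a transcription factor of melanocytes and mast cells, was at 0.40 ± 0.23 by its brightest probe and at 0.65 ± 0.25 by its other probe. Without biological replicate 1 the estimates were 0.28 for MAP2K1 and 0.21 for the brightest MITF probe. EPOR, the receptor of erythropoietin, was at 0.28 ± 0.28, with -0.021, -0.20 and 1.06 in biological replicates 1 to 3. It turned to -0.11 without biological replicate 3 and to -0.0092 with normexp.

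Relatives of KIT ligand and their receptors lay on both sides of 0. In the KIT and FLT receptor families 8 of 20 listed genes were on the array and 5 were tested, and of the 4 beside KITLG 2 were higher and 2 lower, with a median of 0.21. PDGFB, a platelet-derived growth factor chain, was at 0.76 ± 0.23 (limma adjusted p = 0.238) with 1.07, 0.43 and 0.79 in biological replicates 1 to 3, and at 0.12 with normexp. VEGFA, the vascular growth factor, stood at -0.49 ± 0.24 by its brightest probe (-0.26 with normexp) and at -0.13 by its other probe. FLT3LG, the ligand of the progenitor receptor FLT3, was at 0.43 ± 0.36, with -0.71 in biological replicate 1 and 1.49 in biological replicate 2, and its sign turned to -0.095 without biological replicate 2. FLT3 itself was above background on 0 of 12 arrays. Of 8 listed proteases that shed or cleave membrane proteins, MMP9, which can release KIT ligand in mouse bone marrow, was the only tested one. Its 2 brightest probes, each saturated on 6 of 12 arrays, were at 1.16 ± 0.41 and 1.21 ± 0.43 (limma adjusted p = 0.297 for each). In biological replicate 3 they were at -0.15 and -0.094. The unsaturated probes of MMP9 were at 2.26 ± 0.30 and 2.21 ± 0.28 (limma adjusted p = 0.0502 for each).

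**Figure D4:**
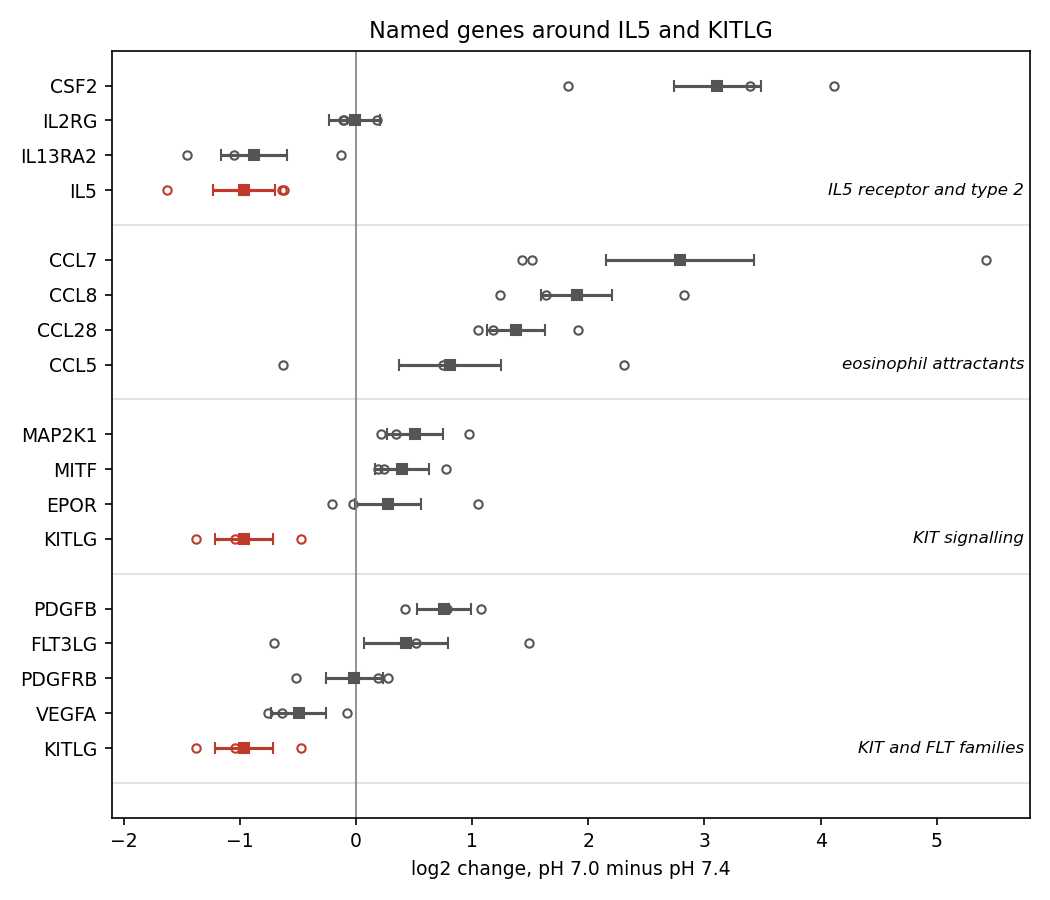
Log2 change, pH 7.0 minus pH 7.4, of the genes named from 4 lists around IL5 and KITLG, each by its brightest probe; squares are means with the SE of the limma fit (n = 3 pairs), open circles the biological replicates, red marks IL5 and KITLG. CSF2 (3.11) and the 4 chemokines lie to the right of 0 as processed here (CCL28 and CCL5 not with normexp), IL5 and KITLG (both -0.96) and IL13RA2 (-0.88) to the left.

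Helical cytokines of the haematopoietic system, the fold family of both genes, had 13 of 25 listed members on the array and 6 tested. The 4 tested members other than IL5 and KITLG had positive estimates, with a median change of 0.36 and 0 passing at an adjusted p of 0.05. Positive estimates were also those of 51.3% of all tested probes and 363 of the 598 named genes tested. The 4 members were CSF2, FLT3LG, IL7, a growth factor of lymphocytes (0.28 ± 0.23), and LEP, the hormone leptin (0.015 ± 0.22). LEP took the opposite sign in 9 of 26 alternatives, among them normexp and no scaling between arrays, and IL7 with normexp (-0.34). With normexp 2 of the 4 were positive and the median was 0.077. IL2, IL4, IL13, IL21 and GH1 were above background on 0 of 12 arrays, and IL6 on at most 1 of 6 in each group. TNF, the 1 tested gene among 10 listed upstream regulators of KITLG, stood at -0.096 ± 0.22.

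Markers of cells that usually make IL5 or carry KIT were mostly not above background. Of 15 mast cell and eosinophil markers, 6 were on the array and 0 were tested: MS4A2, FCER1A, FCER1G and CMA1 were above background on 0 of 12 arrays, and KIT and CCR3 on at most 1 of 6, at pH 7.4. Among lymphocyte and myeloid markers 3 of 15 were on the array. The B cell marker MS4A1 was above on 0 of 12 arrays, the T cell marker CD4 on 3 of 6 at pH 7.0 and 2 of 6 at pH 7.4, and CD8A on 4 of 6 at pH 7.0 and 3 of 6 at pH 7.4. The change of CD8A was -0.0093 ± 0.23. Of 9 fibroblast markers, 4 were on the array and 3 tested, and COL1A1 (0.43 ± 0.26), COL1A2 (-0.21 ± 0.23) and PDGFRB (-0.014 ± 0.25) did not pass the threshold. Markers of tubule epithelium gave a median change of 0.080 over 4 tested genes, from ATP1B1 (-0.69 ± 0.32) to CLDN2 (1.15 ± 0.29), and CLDN2 turned to -0.33 with normexp. ATP1B1 had -1.70, 0.085 and -0.44 in biological replicates 1 to 3, and was at -0.18 without biological replicate 1. The median turned to -0.12 with normexp, to -0.020 without scaling between arrays and to -0.026 without biological replicate 1.

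The named genes most like each member were found by Pearson's r of their levels over the 6 RNAs, among 597 other named genes tested. These 6 points share 3 slides and include the pH difference for which both genes were chosen, so r is a description. For IL5 the highest r belonged to IL13RA2 (0.94), SEC11C, a subunit of the signal peptidase (0.93), SSR1, a subunit of the translocon-associated complex (0.93), the chloride-proton exchanger CLCN3 (0.90) and LOC403555 (0.89). IL13RA2 had the same order of changes as IL5 only in part, since its difference in biological replicate 2 was -0.12 against -0.64 for IL5. For KITLG they were FLCN, the tumour suppressor folliculin (0.97), NFKBIL1 (0.87), SMN, the survival motor neuron gene (0.87), the releasing hormone CRH (0.85) and PTGER2, a prostaglandin E2 receptor (0.84). FLCN, like KITLG, had its smallest difference in biological replicate 3, with -0.64, -0.56 and -0.17 in biological replicates 1 to 3, although its dimmest tested probe did not follow, at 0.16, -1.39 and 0.40. IL5 and KITLG had an r of 0.69 with each other, which placed KITLG at rank 19 for IL5 and IL5 at rank 10 for KITLG.

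The lower signal of both genes at pH 7.0 kept its direction over the processing settings tried. For many settings this was fixed beforehand. Both genes were chosen for a lower signal and were lower in every biological replicate, so leaving out a replicate or an array could not turn it. Settings that changed only the block, repeat-array model, filter or prior gave the same estimate. Over 26 alternatives the change of IL5 ran from -1.13 to -0.63 and that of KITLG from -1.21 to -0.75, with both ends set by leaving out a biological replicate. With the other settings it ran from -1.06 to -0.86 for IL5 and from -1.06 to -0.91 for KITLG. Background correction by normexp, run on the median spot signal, gave the smallest of these estimates, with larger errors, at -0.86 ± 0.41 for IL5 and -0.91 ± 0.41 for KITLG.

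**Figure D5:**
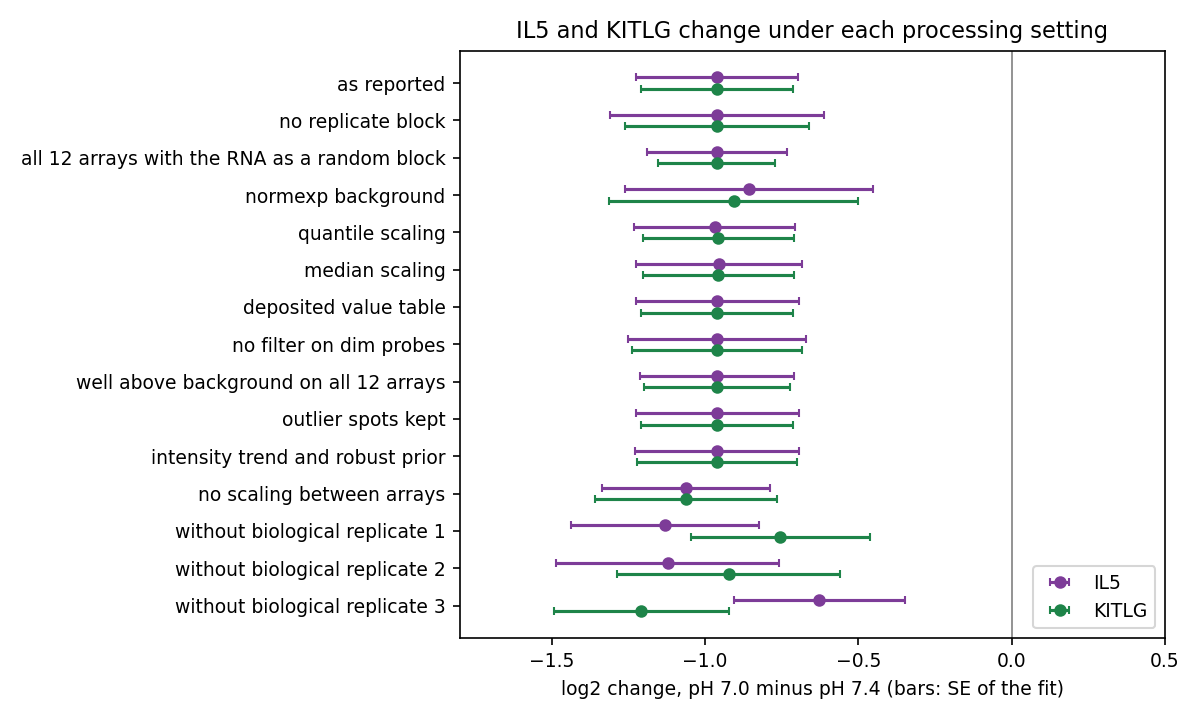
Log2 change, pH 7.0 minus pH 7.4, of IL5 and KITLG as reported and under each alternative setting except leaving out single arrays; points are estimates and bars the SE of the fit. Every estimate is below 0, and the values spread most when a biological replicate is left out (IL5 -1.13 to -0.63, KITLG -1.21 to -0.75).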

How the data were processed

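RNA from MDCK cells was labelled with Cy3. Scans were read with Agilent Feature Extraction 10.7.3.1, per the submitters' processing notes. Per the file headers, each spot has an intensity as processed signal, which that program had background-subtracted, beside median and local background signals. The deposited value table holds log2 values of unstated scale. Set against the scanner values, it equalled the scaled log2 level used here after centring every probe on its median of 12 arrays (slopes 0.999749 to 1.00036). By column, in the order of array number, its medians at pH 7.0 were -0.112, -0.150, 0.225, 0.213, -0.226 and 0.0169, and at pH 7.4 they were 0.0200, -0.211, 0.213, 0.0789, -0.0860 and 0.0652. No direction applies to it.

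Control spots were left out, 128 outlier spots were set to missing and spots of a probe were averaged. Probes well above background on at least 6 of 12 arrays were tested. Arrays 1 and 2, 3 and 4, and 5 and 6 of a group were taken as the repeat arrays of biological replicates 1, 2 and 3, and averaged. The fit was limma 3.58.1 in R 4.3.3 (lmFit, eBayes, two-sided, Benjamini-Hochberg over all tested probes) with the biological replicate as a block. It was also run on simulated data with independent noise and no replicate effect, so that run cannot show how the fit handles deviations shared within a replicate. The pairing comes from the design, and RNAs of the same number deviated together (r of 0.394, 0.637 and 0.807 over probes for biological replicates 1 to 3), though they also share a slide. The replicates are separate extractions of 1 cell line, and their number limits the precision.

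Symbols came from unversioned RefSeq accessions matched to the dog assembly UU_Cfam_GSD_1.0, for 1484 probes (3.40%). The genes, lists and alternatives were chosen with earlier results of these data known. In each list, values are given for the 4 members of lowest unadjusted p, each by its brightest probe. Some genes of the KIT signalling list are counted but not reported here. The 5 named genes of highest r with each member are also given. Values outside this rule, such as those of CD8A, LEP and other probes of a gene, were chosen after they were seen. Figures were drawn with matplotlib 3.10.9. Alternatives covered the block, repeat arrays, background, scaling, filters, prior, replicates and arrays. The normexp alternative (offset 50) used the median spot signal and local background in place of the processed signal, so it differs in both signal and method.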

Additional observations from a re-analysis of the deposited data

Results flagged for a closer look

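A check of each group's 6 arrays for a value far from the others was run on 38 genes, 76 groups in all, and flagged 7. Its chance rate of about 1 in 20 groups holds for 6 independent values. The arrays of a group are 3 RNAs on 2 arrays each, so that rate does not apply and nothing is read from the count. IL5 and KITLG were not among the flagged genes: the largest gap over range was 0.48 for IL5 and 0.44 for KITLG, below Dixon's critical value. The flagged arrays, each with its gap to the nearest array over the range of its group, were as follows. At pH 7.0, array 5 was the highest for the junction protein OCLN (0.882) and for PDGFB (0.639). Array 6 at pH 7.0 was the lowest for MITF (0.728) and the highest for CD8A (0.639). Array 3 at pH 7.0 was the lowest for IL2RG (0.650). At pH 7.4, array 6 was the highest for SSR1 (0.762) and array 2 the lowest for LEP (0.660).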

How the results depend on the processing

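The change of IL5 and of KITLG kept its sign in all 26 alternatives and stayed within the spread between biological replicates of the reported value, and each gene had 1 probe, so a mean over probes gave no other value. Leaving out an array or a biological replicate could not turn the sign, since every array pair within a biological replicate was lower at pH 7.0. Changing the block, the repeat-array model, the filter or the prior left the estimate as it was. Nothing is read from the kept sign, since both genes were chosen for it. Leaving out 1 biological replicate gave -1.13 to -0.63 for IL5 (-0.63 without biological replicate 3) and -1.21 to -0.75 for KITLG, and leaving out 1 array gave -1.05 to -0.87 and -1.06 to -0.87. Without the replicate block the estimates were the same and the limma adjusted p was 0.9999 for both, with 0 probes called. With all 12 arrays and the RNA as a random block it was 0.0440 for IL5 and 0.0223 for KITLG. That fit counts repeat arrays of an RNA as largely separate measurements, with a correlation of 0.164 between them. Counts of probes past the threshold, 0 higher and 0 lower as reported, were 396 and 294 in that fit, 7 and 2 with normexp on the median signal, 17 and 7 with median scaling, 90 and 44 among probes above background on all 12 arrays, 122 and 70 with an intensity trend and robust prior, and 9 and 6 without scaling between arrays, an alternative chosen after the data were seen. They were 48 and 23 at an adjusted p under 0.10 and 1758 and 1566 at an unadjusted p under 0.05. Leaving out single replicates or arrays gave 0 to 203 higher and 0 to 447 lower. Leaving out biological replicate 1 gave 203 higher and 74 lower, and biological replicate 2 gave 200 and 447. Dropping array 6 at pH 7.0 gave 10 and 5, and dropping array 1 at pH 7.4 gave 4 and 0. The cause of these shifts was not tested. Among 36 other named genes, 44 of 924 values had the opposite sign, in 12 genes. Signals near the local background limit what can be said of the dim genes.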

Other observations

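In the dog assembly UU_Cfam_GSD_1.0, IL5 lies between IRF1 and the pair IL13 and IL4, with an unnamed locus between IL5 and IL13. Of the 6 nearest protein-coding genes around IL5, 3 on each side, 2 had a probe with their symbol, IL13 and IL4, and both were above background on 0 of 12 arrays. IL5 was above background on all 12. Of the 6 nearest protein-coding genes around KITLG, among them TMTC3 and DUSP6, 0 had a probe with their symbol.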
